A study of Mus musculus with 8 samples.

Results

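The 8 genes described here encode the subunits of the transcription factor AP-1 that belong to the Fos family (Fos, Fosb, Fosl1 and Fosl2) and the Jun family (Jun, Junb and Jund), together with the related stress-induced factor Atf3. They were taken by gene identifier from 32108 genes in the expression table. All 8 passed the filter on low values, which 15358 genes passed. The cells were 4F2A mouse embryonic fibroblasts (MEFs), in which doxycycline switches on Oct4, Sox2, Klf4 and c-Myc together from a transgene in the Col1a1 locus. Per the labels they came from male homozygous embryos of 13.5 dpc. All 4 groups received 2 µg/mL doxycycline from day 0 and grew in serum replacement medium with 1000 U/mL of the cytokine LIF, renewed daily. The groups D2, D4, D6 and D8 were harvested on days 2, 4, 6 and 8 and hold 2 libraries each. Every title carries the mark "Ctr". Cells from day 0 or without doxycycline were not analysed here, so each change is between days of induction. Whether libraries of the same day stem from different cultures or embryos is not stated in the labels. The p-values therefore measure only the spread between these samples, pooled over the days, and that spread may be technical. Day and harvest coincide, so a difference between days cannot be told apart from a difference between harvests.

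AP-1 is a dimer of basic leucine zipper proteins. Fos family proteins bind DNA only with a partner, usually a Jun protein, whereas Jun proteins can also pair with each other, and Atf3 forms dimers with itself or with Jun proteins. Fos and Fosb are immediate-early genes, transcribed within minutes of a growth factor or stress signal through factors already present in the cell, and their mRNAs are short-lived. Fosl1 and Fosl2 are induced later and more lastingly. In fibroblasts AP-1 occupies many enhancers of the somatic programme, and Jun is known to hinder reprogramming.

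The libraries held 19409936 to 20161021 counted reads, and the upper limit for a gene without reads, set at 3 reads for counting error only, equalled 0.149 to 0.155 CPM (counts per library scaled to 1000000). The factor genes Pou5f1, Sox2, Klf4 and Myc were present in every library, at no less than 112, 107, 326 and 383 CPM. The fibroblast label was met: 12 fibroblast markers summed to between 36861 and 54630 CPM in every library. The labels call the embryos male, yet Xist, a long noncoding RNA of the silenced X, stood at 702 to 1238 CPM, and Ddx3y, on the Y chromosome, reached at most 0.333 CPM. In bulk RNA, fewer cells of a type and less RNA per cell cannot be told apart. The median change of all tested genes was 0.11 for D2 to D4, 0.07 for the step to D6, -0.00 for the step to D8 and 0.17 over the whole span on the log2(CPM + 1) scale, against which the changes below are read.

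The subunits split by their course over the days. Fos, Fosb and Junb were highest on D4 and fell by D6. Atf3, Fosl2 and Fosl1 were highest on D2, and most of their fall was complete by D4. Jund was lower on D4 than on D2, with smaller changes after, and Jun had no called change by D4 and was lower on D6. A pulse is counted here where limma (Benjamini-Hochberg adjustment across the tested genes) called the gene higher on D4 than on D2 and lower on D6 than on D4, at an adjusted p under 0.05. By that count 3 of the 8 subunits had a pulse, against 5.5% of all tested genes. A fall at each of the 3 steps was called for 1 of the 8, Fosl1, against 0.593% of all tested genes. The comparisons of a pulse share the D4 libraries, so they are not independent of each other.

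**Figure D1:**
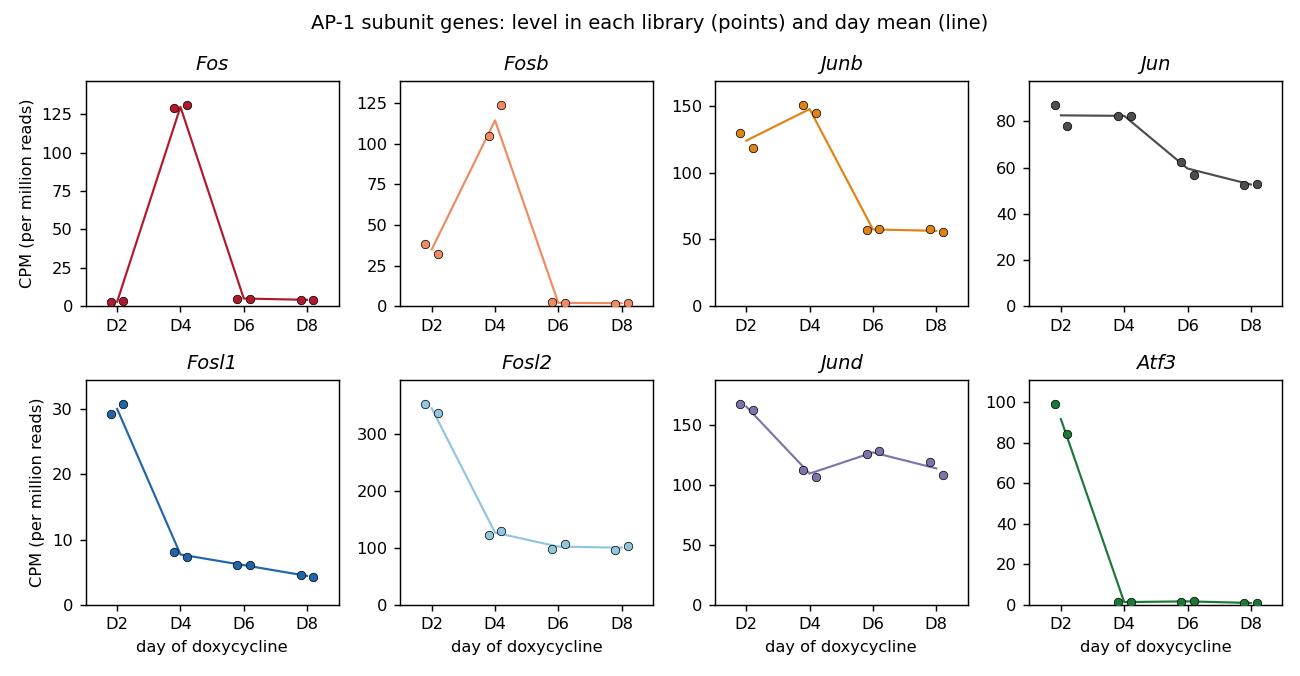
Level of each subunit gene in CPM (vertical axis, starting at 0, its own scale per gene) by day of doxycycline, with a point for each of the 2 libraries of a day and a line through the day means. Fos, Fosb and Junb peak on D4, and Atf3, Fosl1 and Fosl2 are highest on D2.

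Fos, the founding member of its family, was low outside D4. Its 2 libraries read 2.43 and 3.44 CPM on D2, 128.7 and 130.9 CPM on D4, 4.97 and 4.96 CPM on D6, and 4.07 and 4.15 CPM on D8. The D4 libraries were far above all 6 others, which lay between 2.43 and 4.97 CPM. The mean rose from 2.93 ± 0.711 CPM to 129.8 ± 1.54 CPM (SD, n = 2), a 44.2-fold difference, and the change of 5.07 ± 0.11 (SE) on the log2(CPM + 1) scale was called by limma (adjusted p = 2.5e-12). Only 7 of the genes called higher in that comparison had a larger rise. From D4 to D6 the level fell 26.1-fold (change -4.45, adjusted p = 3.4e-11), the second largest fall among genes called lower at that step. The residual D8 level was called above D2 (change 0.39, adjusted p = 0.0076). That call was lost with median-of-ratios scaling (0.24, adjusted p = 0.069) and without D2 replicate 1 (0.20, adjusted p = 0.12), and under quantile normalization the change was -0.049 (adjusted p = 0.72).

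Fosb, the other immediate-early member of the Fos family, began from a higher level on D2 than Fos and ended lower. It read 38.0 and 31.9 CPM on D2, 105 and 124 CPM on D4, 2.26 and 1.79 CPM on D6, and 1.49 and 2.15 CPM on D8. The D2, D4 and later libraries formed 3 levels without overlap, while D6 and D8 overlapped. The rise to D4 was 3.27-fold (change 1.68 ± 0.13, adjusted p = 1.6e-07). The fall to D6 was 56.6-fold (change -5.26, adjusted p = 3.4e-11), the largest among all genes called lower at that step. Unlike that of Fos, the D8 level lay 19.2-fold below D2 (change -3.68, adjusted p = 3.8e-11).

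Junb, a Jun family member that is also induced early by growth factors and that activates transcription less strongly than Jun, had a small rise and a larger fall. Its libraries read 129.6 and 118 CPM on D2, 150.4 and 145 CPM on D4, 57.2 and 57.6 CPM on D6, and 57.5 and 55.2 CPM on D8. The D4 libraries were above the D2 libraries, and both days were above D6 and D8, which overlapped. The rise was 1.19-fold (change 0.25 ± 0.056, adjusted p = 0.0016), small beside the 44.2-fold rise of Fos. It was called under all 14 alternative settings tried, with changes between 0.14 and 0.32. The fall to D6 was 2.57-fold (change -1.35, adjusted p = 6.1e-09), and the D8 mean was 2.20-fold below D2 (adjusted p = 9.5e-10). Among the 844 genes with a pulse, ranked by the smaller of rise and fall, Fos was first, Fosb was at place 4 and Junb at place 613.

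The summed fibroblast markers also moved with D4, at 50052 to 54630 CPM against 41424 to 41714 CPM on D2 and 38148 to 42289 CPM on D6. From D2 to D4, 8 of the 12 were called higher and 3 lower, against 40.9% and 21.7% of all tested genes. A pulse was counted for 5, Col1a1, Col1a2, Col3a1, Pdgfrb and Postn, against 5.5% of all tested genes. Fn1 fell from 12859 ± 245 to 6398 ± 690 CPM at that step, Vim from 4748 ± 119 to 3440 ± 179 CPM and Thy1 from 532 ± 6.46 to 393 ± 40.1 CPM, while Dcn and Lum were called higher at every step. The part of these markers in the pulse of Fos, Fosb and Junb was not tested. Macrophage markers, 9 in number, summed to 90.0 to 92.6 CPM on D4, within the range of 70.0 to 98.8 CPM on D2. The endothelial sum was between 69.2 and 71.7 CPM on D2 and between 164 and 165 CPM on D8, with no peak on D4. It was nearly all Tek, with 161.9 CPM on D8, while Pecam1 stayed at 0.90 CPM or less in the day means and Cldn5 was at 0 on D2, D4 and D6. The epithelial sum was between 34.0 and 35.6 CPM on D2 and between 186 and 202 CPM on D8, also without a peak on D4. The 6 markers of pluripotent cells summed to at most 1.04 CPM in any library.

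Atf3, a factor induced by stress signals that often represses its targets, had the steepest loss of the 8. It read 99.1 and 84.0 CPM on D2, 1.25 and 1.40 CPM on D4, 1.38 and 2.00 CPM on D6, and 1.03 and 0.769 CPM on D8. Both D2 libraries stood far above the 6 later ones, of which the lowest still rested on 15 reads. The first step was a 69.0-fold fall (change -5.31, adjusted p = 5.2e-12), the second largest among genes called lower between D2 and D4. Over the whole span the fall was 102-fold (change -5.61, adjusted p = 1.1e-12). Its change from D4 to D6 was not called (0.20, adjusted p = 0.26). The further change from D6 to D8 (-0.50, adjusted p = 0.041) lost its call in 7 of the 14 alternative settings.

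Fosl2, which encodes Fra-2, had the highest CPM of the 8 on D2. Its libraries read 354 and 338 CPM on D2, 124 and 130.4 CPM on D4, 98.1 and 107 CPM on D6, and 96.9 and 104 CPM on D8. D2 was above D4 and D4 above D6 without overlap, and D6 and D8 overlapped. The first fall was 2.72-fold (change -1.44, adjusted p = 2.4e-10) and the second was small (change -0.31, adjusted p = 0.0011). From D6 to D8 no change was called (-0.03, adjusted p = 0.82), so no fall was called after D6. Fosl2 and Fosl1 were the 2 subunits called lower both from D2 to D4 and from D4 to D6, as were 4.13% of all tested genes.

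Fosl1, which encodes Fra-1, a Fos family protein linked to cell migration, read 29.3 and 30.8 CPM on D2, 8.09 and 7.35 CPM on D4, 6.10 and 6.06 CPM on D6, and 4.61 and 4.25 CPM on D8. The libraries of the 4 days did not overlap, and each day was below the one before it. The first step was 3.89-fold (change -1.83, adjusted p = 2.7e-09) and carried most of the 6.78-fold loss by D8. The later steps were small, -0.30 (adjusted p = 0.025) and -0.38 (adjusted p = 0.027). Their calls were lost in 3 and in 7 of the 14 alternative settings, and the fall at every step was called in 6 of the 14. It was not called without the filter on low values, nor on leaving out any of 7 single libraries, both of D2, D6 and D8 and D4 replicate 1, and it was called without D4 replicate 2.

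Jun and Jund moved least. Jun, the subunit that gives AP-1 most of its activating strength, read 87.0 and 78.2 CPM on D2, 82.5 and 82.3 CPM on D4, 62.4 and 56.8 CPM on D6, and 52.5 and 52.8 CPM on D8. The D4 libraries lay between those of D2 (change -0.00, adjusted p = 0.98), while D6 and D8 lay below both days. The change from D4 to D6 was -0.46 (adjusted p = 1.1e-04), the change from D6 to D8 was not called (-0.17, adjusted p = 0.10), and the D8 mean was 1.57-fold below D2.

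Jund, a subunit that most cells express steadily, read 168 and 163 CPM on D2, 112 and 107 CPM on D4, 126 and 129 CPM on D6, and 119 and 108 CPM on D8. D2 was above all later days, and the D4 range overlapped that of D8. Its first change was -0.59 (adjusted p = 8.2e-07). It was the only subunit called higher on D6 than on D4 (0.21, adjusted p = 0.0083). That call was lost with median-of-ratios scaling (0.13, adjusted p = 0.067), without D4 replicate 2 (adjusted p = 0.056) and without D6 replicate 2 (adjusted p = 0.052). By D8 the level was 1.45-fold below D2 (adjusted p = 1.3e-06).

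Set side by side over the steps, the calls moved from mixed to downward. From D2 to D4, 3 of the 8 were called higher and 4 lower by limma, when 40.9% of all tested genes were called higher and 21.7% lower (62.5% in either direction), and the median change of the 8 was -0.30. From D4 to D6, 6 were called lower and 1 higher, against 12.6% and 25.2% of all tested genes and 37.7% in either direction, with a median of -0.39. From D6 to D8, limma called 2 lower (Fosl1 and Atf3) and 0 higher, against 4.39% and 4.72% of all tested genes and 9.11% in either direction. At an unadjusted p under 0.05 these counts were 4 lower and 0 higher, and the median change of the 8 was -0.17. From D2 to D8, 7 of the 8 were called lower and 1, Fos, higher, against 23.1% and 47.3% of all tested genes and 70.4% in either direction, with a median of -1.45. The direction of the background depended on the scaling, since the share of calls from D2 to D8 that were rises was 67.2% in the deposited values, 50.7% when scaled by median of ratios and 45.1% when quantile normalized. The fall of the 7 subunits was called under all of these scalings.

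**Figure D2:**
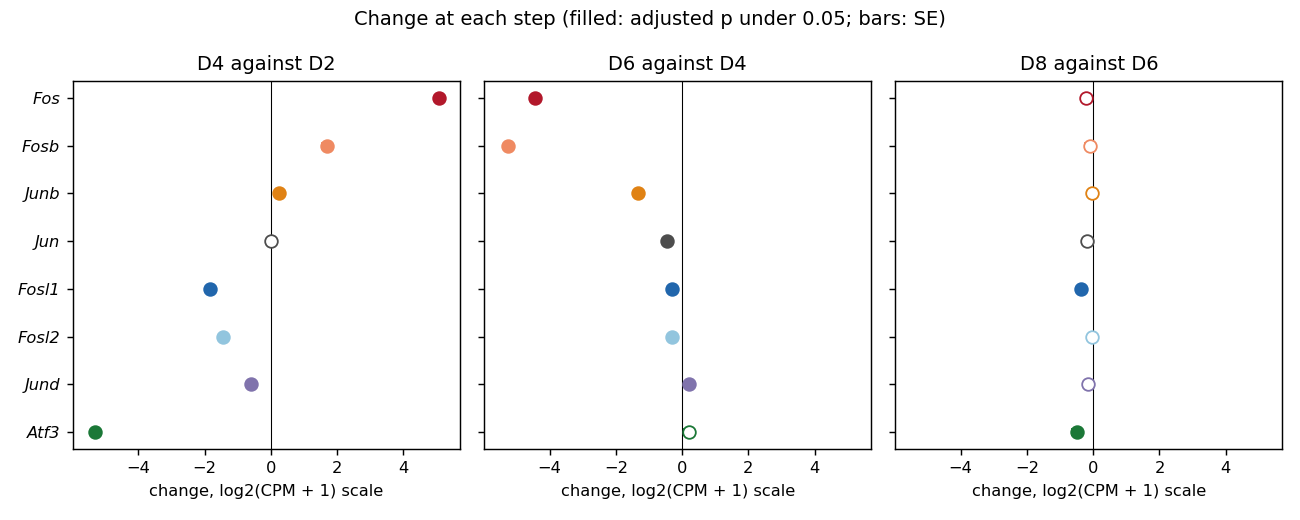
Change of each subunit gene at each comparison of days on the log2(CPM + 1) scale (horizontal axis), with bars for the SE and filled points where limma's adjusted p was under 0.05. Fos and Fosb lie far to the right from D2 to D4 and far to the left from D4 to D6, and most points lie near 0 from D6 to D8.

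Levels of different genes were compared per kilobase of exon. On D2 the order was Jund (99.1 ± 2.02 CPM per kb), Junb (53.8 ± 3.49), Atf3 (42.5 ± 4.95), Fosl2 (35.7 ± 1.16), Jun (25.9 ± 1.96), Fosl1 (14.8 ± 0.544), Fosb (5.60 ± 0.687) and Fos (1.25 ± 0.302 CPM per kb), with no overlap between neighbours. On D4 Fos had climbed from the last place to the third, at 55.2 ± 0.654 CPM per kb, and Atf3 had dropped to the last, at 0.616 ± 0.051 CPM per kb. Jund (65.6 ± 2.39 CPM per kb) and Junb (64.1 ± 1.80 CPM per kb) overlapped at the top on D4. On D6 and D8 the order was Jund, Junb, Jun, Fosl2, Fosl1, Fos, Atf3 and Fosb, without overlap between neighbours on either day. The last places on D8 were close, with Atf3 at 0.357 to 0.478 and Fosb at 0.239 to 0.345 CPM per kb. Their lowest libraries that day held 15 and 29 reads.

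The makeup of the Fos family therefore differed from day to day. Of the summed per-length level of its 4 genes, Fosl2 held 62.3% ± 0.933 and Fosl1 25.8% ± 1.40 on D2 (SD, n = 2), and Fos held 2.18% ± 0.565. On D4 Fos held 61.0% ± 1.30 and Fosb 20.2% ± 1.67, so that the pair made up 81.3% ± 0.373 of the family, against 11.9% ± 0.464 on D2. On D6 and D8 Fosl2 again held the most, 66.1% ± 1.62 and 71.1% ± 1.18. The family sum itself was 57.4 ± 0.997 CPM per kb on D2, 90.4 ± 3.0 on D4, 16.0 ± 0.560 on D6 and 14.6 ± 0.509 CPM per kb on D8. The peak of the sum rested on dividing by length, since Fos has 2352 bases of exon and Fosl2 has 9680. In plain CPM the family sum was 414 on D2 and 379 on D4, and Fos held 34.3% and Fosl2 33.5% on D4.

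The Jun family shifted less. Jund held 55.4% ± 1.18 of its summed per-length level on D2, 42.2% ± 0.387 on D4, 63.6% ± 0.983 on D6 and 62.4% ± 1.18 on D8. Junb held 30.1% ± 0.694, 41.2% ± 0.0346, 20.8% ± 0.0765 and 22.4% ± 0.402 on the same days, and Jun stayed between 14.5% and 16.6%. The sum was 179 ± 7.46 CPM per kb on D2, 156 ± 4.24 on D4, 119.8 ± 0.149 on D6 and 109 ± 5.23 on D8. Per kilobase it exceeded the sum of the Fos family on every day, but in plain CPM the Fos family sum was the higher on D2 (414 against 372) and on D4 (379 against 339). These are shares of mRNA, and the dimers themselves were not measured.

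**Figure D3:**
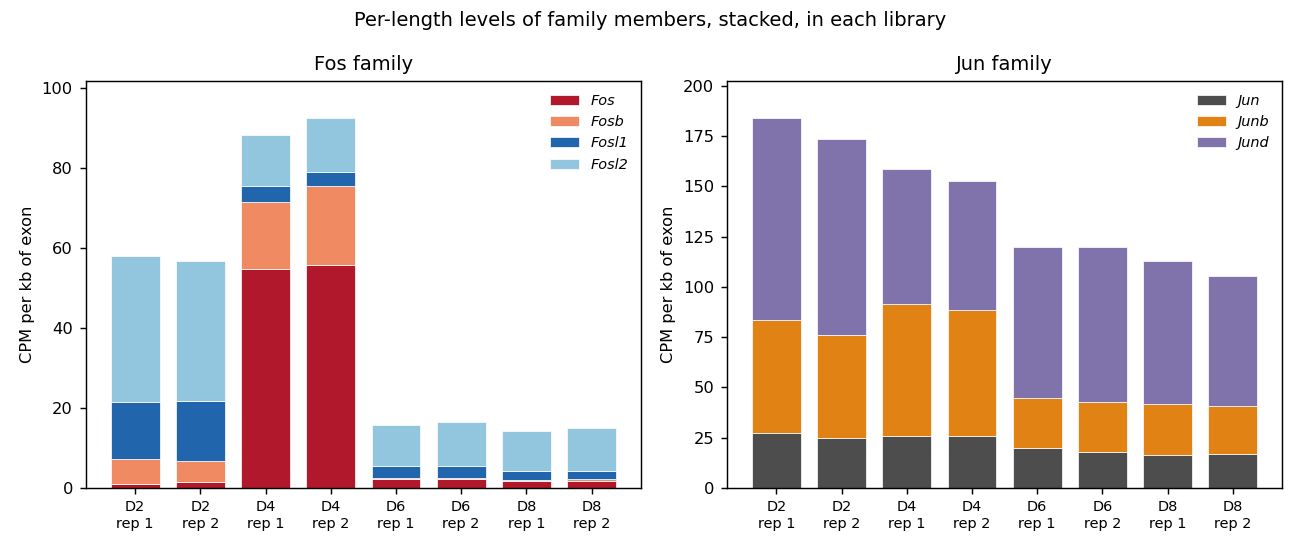
Per-length levels (CPM per kb of exon, vertical axis from 0) of the Fos family genes and the Jun family genes, stacked for each of the 8 libraries. Fos and Fosb fill most of the Fos family bar on D4 and little of it on other days, and the Jun family bar shrinks from D2 to D8.

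The promoters of the 3 subunits with a pulse and of Jun and Atf3, which had none, are printed to set their motifs beside the courses above. Each is the 250 bases before the gene's start in RefSeq (build GRCm38.p6), 5′ to 3′ on the gene's strand. They are chr12:85473640-85473889 (plus strand) for Fos, chr7:19310046-19310295 (minus) for Fosb, chr8:84978749-84978998 (minus) for Junb, chr4:95052223-95052472 (minus) for Jun and chr1:191183334-191183583 (minus) for Atf3, where the RefSeq start lies inside the longest gene model. RefSeq promoters matched 7 of the 8 subunits. Capitals mark matches on either strand to TGACG (the core of the cyclic AMP response element), TNACNTCA (a variant AP-1 or ATF site), TGANTCA (the consensus AP-1 site) and TATAAA (the core promoter element bound by TBP).
Fos: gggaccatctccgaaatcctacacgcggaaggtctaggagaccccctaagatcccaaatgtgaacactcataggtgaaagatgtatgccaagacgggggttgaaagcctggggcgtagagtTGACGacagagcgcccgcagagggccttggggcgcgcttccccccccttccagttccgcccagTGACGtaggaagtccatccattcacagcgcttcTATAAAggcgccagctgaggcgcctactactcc
Fosb: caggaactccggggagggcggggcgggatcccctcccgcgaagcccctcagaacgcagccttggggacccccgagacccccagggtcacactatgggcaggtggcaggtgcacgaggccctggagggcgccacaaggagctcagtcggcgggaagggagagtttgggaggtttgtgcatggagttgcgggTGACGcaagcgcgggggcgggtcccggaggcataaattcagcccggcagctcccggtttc
Junb: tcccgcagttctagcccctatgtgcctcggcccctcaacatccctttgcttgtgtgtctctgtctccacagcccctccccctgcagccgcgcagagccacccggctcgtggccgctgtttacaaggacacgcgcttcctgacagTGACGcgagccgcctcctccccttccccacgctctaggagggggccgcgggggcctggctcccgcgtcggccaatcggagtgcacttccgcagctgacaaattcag
Jun: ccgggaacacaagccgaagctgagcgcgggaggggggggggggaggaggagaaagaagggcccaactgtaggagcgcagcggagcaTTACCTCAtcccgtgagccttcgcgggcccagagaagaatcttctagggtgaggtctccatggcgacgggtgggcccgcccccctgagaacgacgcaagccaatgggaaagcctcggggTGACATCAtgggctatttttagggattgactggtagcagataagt
Atf3: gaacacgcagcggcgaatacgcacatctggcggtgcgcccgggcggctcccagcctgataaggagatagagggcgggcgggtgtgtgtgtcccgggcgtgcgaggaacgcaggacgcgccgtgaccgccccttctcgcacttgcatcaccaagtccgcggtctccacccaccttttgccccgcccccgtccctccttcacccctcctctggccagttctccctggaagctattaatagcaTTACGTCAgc

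The pulse subunits each held TGACG and no TNACNTCA. Fos held TGACG at 129 to 125 and at 66 to 62 bases before its start, with TATAAA at 33 to 28. Fosb held TGACG at 60 to 56 bases and Junb at 106 to 102 bases before the start. Jun held 2 TNACNTCA matches, TTACCTCA at 164 to 157 and TGACATCA at 45 to 38. In Atf3 the match TTACGTCA at 10 to 3 bases before the start overlapped a TGACG match on the other strand. Of the 7 promoters, 4 held TGACG (17.8% of 32851 RefSeq promoters of the same length did), 3 held TNACNTCA (14.0%), 1 held TATAAA (12.4%) and 5 held the GC box GGGCGG (32.7%). None of the 7 held TGANTCA (6.75% of all) or a CArG box, the site of serum response factor (1.47% of all), within these windows. Bases outside the windows were not searched, so sites there would be missed. The window of Jund, 1 of the 3 with TNACNTCA, is chr8:70697489-70697738 and ends before its gene model's start at 70698949. That of Fosl2, chr5:32136222-32136471, lies inside its gene model. These letters describe the windows, and binding was not measured.

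The mRNAs share a feature known from short-lived transcripts. The AU-rich nonamer core TATTTAT lay in the 3′UTR of 7 of the 8, counted in the longest coding transcript of GENCODE M21, against 27.9% of 13460 tested genes with a 3′UTR. Fosl2 held 3 copies in 4653 bases, Fos 2 copies in 815 bases, and Fosb, Fosl1, Jun, Jund and Atf3 held 1 each. Junb, which had a pulse, held 0 in 485 bases. The shorter pentamer ATTTA was present in all 8, from 1 copy in Fosb, Fosl1 and Jund to 8 in Fosl2. The 3′UTRs differ in length, and the motif did not separate the subunits with a pulse from the others.

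Proteins that act on these mRNAs and proteins were followed as a list of 12 turnover regulators. From D2 to D4, 5 of the 12 were called higher and 1 lower, against 40.9% and 21.7% of all tested genes (62.5% in either direction). The share called higher was near that background. A pulse was counted for 3, against 5.5% of all tested genes. These 3 were Zfp36, Zfp36l1 and Zfp36l2, the whole tristetraprolin family on the list, which binds AU-rich elements and hastens decay. Zfp36 read 20.6 and 19.9 CPM on D2, 84.3 and 82.7 on D4, 21.7 and 18.7 on D6, and 18.7 and 19.2 CPM on D8. Its D4 libraries stood apart from the other 6, as those of Fos did, with changes of 1.99 (adjusted p = 1.3e-10) and -2.00 (adjusted p = 2.4e-09). Zfp36l1 changed by 0.57 and -0.50, and Zfp36l2 by 0.33 and -0.35, at the same steps.

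Immediate-early genes outside the AP-1 families went both ways on D4, as the subunits did. Of 25 such genes, 4 were called higher and 16 lower from D2 to D4, against 40.9% and 21.7% of all tested genes. From D4 to D6, 18 were called lower, against 12.6% of all tested genes. The median change of the 25 was -0.52 and then -0.46. A pulse was counted for 4, Egr1, Ier2, Zfp36 and Dusp1, against 5.5% of all tested genes. Egr1, a zinc finger factor induced by the same signals as Fos, read 54.4 and 44.7 CPM on D2, 394 and 399 on D4, 45.4 and 41.5 on D6, and 48.8 and 51.6 CPM on D8. Only the D4 libraries of Egr1 were high, an 8.0-fold rise (change 2.98, adjusted p = 5.9e-12) and a 9.12-fold fall (adjusted p = 3.4e-11). Dusp1, a phosphatase that switches MAP kinases off, changed by 1.095 and -1.64.

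Other early genes followed Atf3 instead. Egr3, a relative of Egr1, fell from 51.6 ± 2.24 CPM on D2 to 4.60 ± 0.155 CPM on D4 (change -3.23, adjusted p = 8.1e-11). Gadd45b, a growth arrest and stress gene, fell from 69.6 ± 2.68 to 9.93 ± 0.219 CPM (change -2.69). Maff, a small Maf protein that lacks an activation domain, fell from 28.4 ± 2.27 to 3.60 ± 0.152 CPM (change -2.67). By D8, 22 of the 25 were called below D2, against 23.1% of all tested genes.

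**Figure D4:**
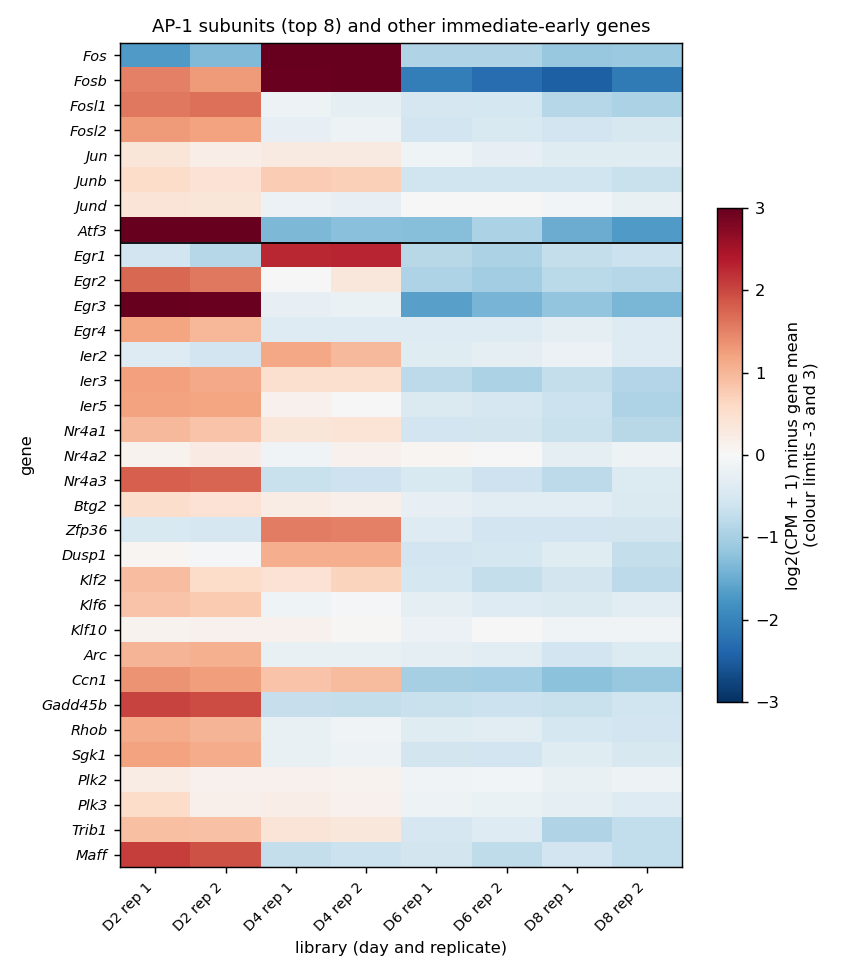
Heat map of the 8 AP-1 subunit genes (top rows) and other immediate-early genes in each of the 8 libraries (columns), coloured by log2(CPM + 1) centred on each gene's mean. Fos, Egr1, Zfp36 and Ier2 are high in the D4 libraries alone, and Atf3, Egr3, Gadd45b and Maff are high in the D2 libraries.

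Genes upstream of AP-1 went in both directions from D2 to D4, when 62.5% of all tested genes were called (40.9% higher and 21.7% lower), and the share called in either direction in both lists that follow was near that background. Of 15 serum response, ternary complex, CREB and MEF2 factors, which carry signals to the Fos and Jun promoters, 8 were called higher and 3 lower from D2 to D4. Srf, which encodes serum response factor, read 74.3 and 76.0 CPM on D2, 30.7 and 31.5 on D4, 24.4 and 27.0 on D6, and 24.2 and 24.1 CPM on D8. Its D4 libraries were below both D2 libraries (change -1.25, adjusted p = 3.0e-09) at the step at which Fos rose. Mef2c rose from 11.5 ± 1.16 to 22.7 ± 2.22 CPM (change 0.92, adjusted p = 2.4e-06). Among 16 tested MAP kinases and their kinases, 4 were called higher and 7 lower from D2 to D4. Map2k1, which encodes MEK1, fell from 97.7 ± 2.87 to 54.1 ± 2.53 CPM (change -0.84, adjusted p = 8.9e-08). Kinase activity is set by phosphorylation, which was not measured.

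Among 12 tested dimer partners and related leucine zipper factors, 3 were called higher and 6 lower from D2 to D4, against 40.9% and 21.7% of all tested genes. From D4 to D6, 5 were called higher and 2 lower, against 25.2% and 12.6% of all tested genes. Ddit3, which encodes the stress factor CHOP, fell from 46.1 ± 2.23 to 17.7 ± 1.09 CPM on D4 (change -1.33, adjusted p = 2.4e-07). Atf5, a factor of the ATF4 branch of the stress response, fell from 244 ± 1.96 to 125 ± 4.42 CPM (change -0.97). In the kinase list a pulse was counted for Mapk12 (1 of 16), and among the promoter factors for Elk3 and Crtc3 (2 of 15), against 5.5% of all tested genes.

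Textbook AP-1 targets were divided as well. Of 23 tested, 6 were called higher and 14 lower from D2 to D4, against 40.9% and 21.7% of all tested genes, with a median change of -0.82. From D4 to D6, 3 were called higher and 13 lower, against 25.2% and 12.6%. By D8, 16 were called below D2 and 5 above it, against 23.1% and 47.3%. A pulse was counted for 4, against 5.5% of all tested genes. These were the matrix metalloproteinase genes Mmp3, Mmp10 and Mmp13 and the chemokine gene Ccl2. Mmp3, which encodes stromelysin, read 7.81 and 12.2 CPM on D2, 446 and 381 on D4, 256 and 267 on D6, and 269 and 245 CPM on D8. It rose with Fos on D4 (41.4-fold, change 5.26, adjusted p = 5.0e-12). Its fall to D6 was 1.58-fold (change -0.66, adjusted p = 0.0020), against 26.1-fold for Fos, and the D8 mean was still 25.7-fold above D2. Mmp10 changed by 2.52 and -0.60 and Mmp13 by 2.00 and -0.62 at the same steps.

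Other targets were highest on D2. Hbegf, an EGF receptor ligand, fell from 85.3 ± 6.43 to 9.81 ± 0.877 CPM (change -2.997, adjusted p = 7.8e-10). Spp1, which encodes osteopontin, was lower at each of the first 2 steps, at 1394 ± 8.04 CPM on D2, 450 ± 106 on D4 and 108 ± 31.0 CPM on D6. Whether the subunits acted on these genes was not tested.

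**Figure D5:**
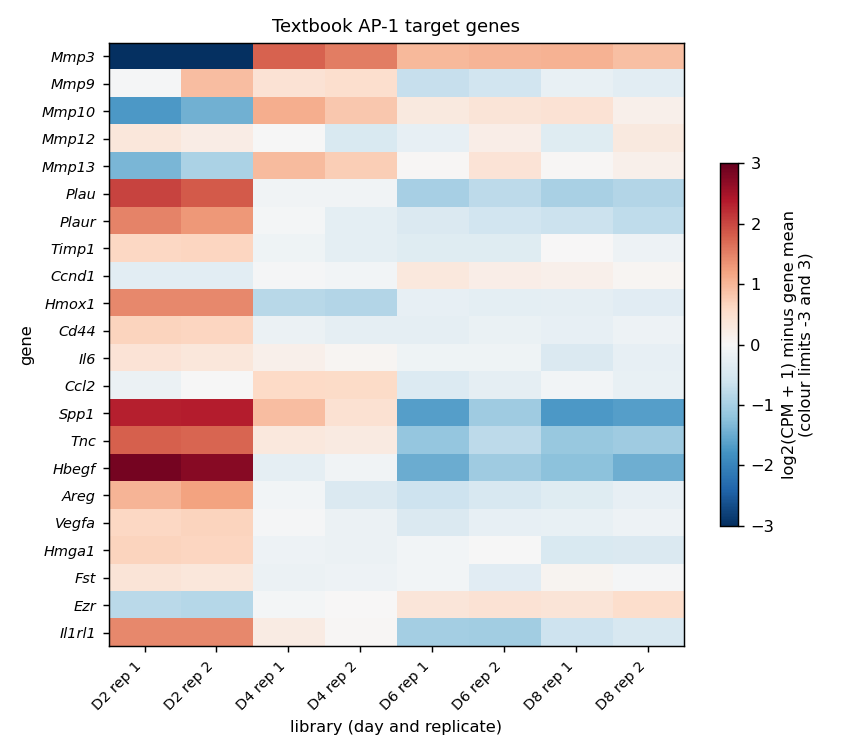
Heat map of 22 textbook AP-1 target genes in each of the 8 libraries (columns), coloured by log2(CPM + 1) centred on each gene's mean. Mmp3, Mmp10 and Mmp13 are lowest on D2 and highest on D4, and Hbegf and Spp1 are high on D2.

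Genes with the course most like that of each subunit were ranked by the root mean square difference of log2(CPM + 1) over the 8 libraries, after each gene was centred on its own mean. Fos had no close match, with Egr1 nearest at 0.80, then Zfp36 at 1.2 and Tmem26 at 1.30. The nearest genes to Fosb were Ccn1 at 1.35, Spp1 at 1.41 and Cthrc1 at 1.49. Junb was nearest to the Notch target Hes1 (0.141), Il18rap (0.166) and Ppp1r15a (0.172), and Atf3 to the connexin gene Gjb2 (0.373) and to Nipal1 (0.587). The subunits with smaller changes had nearer matches, such as Gdnf for Fosl1 (0.0795), Ccdc80 for Fosl2 (0.0494), Fbxo34 for Jun (0.0613) and Atp6v0c for Jund (0.0271). The measure grows with the size of a gene's change, so these distances describe each gene's neighbours and do not rank the subunits.

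Several subunits share exons with other genes, and whether the counting used strand is not given in the sources used here. On the opposite strand Ccdc85b covers 57.2% of the exon bases of Fosl1 (chromosome 19, 5447547 to 5455946, plus strand), so reads of the pair may not be told apart. Ccdc85b read 40.6 ± 1.15 CPM on D2 and 20.6 ± 2.34, 18.2 ± 1.42 and 18.3 ± 2.03 CPM on D4, D6 and D8. Its mean, like that of Fosl1, was lower on D4 than on D2, and its part in the Fosl1 values was not tested. Prdx2 covers 7.52% of Junb (chromosome 8, 84974484 to 84978718, minus strand). It read 229 ± 0.573, 253 ± 20.3, 317 ± 12.3 and 318 ± 26.9 CPM on D2, D4, D6 and D8, and its part in the Junb values was not tested. Gm11175 covers 52.6% of Jund (chromosome 8, 70698949 to 70700616, plus strand) and Junos 7.28% of Jun (chromosome 4, 95049034 to 95052222, minus strand), and neither was analysed here. Fos (chromosome 12, 85473890 to 85477273, plus strand), Fosb (chromosome 7, 19302696 to 19310051, minus strand), Fosl2 (chromosome 5, 32135801 to 32157842, plus strand) and Atf3 (chromosome 1, 191170296 to 191218039, minus strand) held whole read numbers (tolerance 0.001 read) in all 8 libraries. Fosl1, Jun and Jund, which share exon bases with another gene, held whole reads in 5 of 8 libraries, and Junb, which also does, in 3 of 8. How reads in shared exons were counted was not tested. In the longest coding transcript of GENCODE M21 (mm10), Jun, Junb and Jund have 1 exon and the other 5 have 4 exons.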

How the data were processed

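Bulk total RNA of 8 libraries was sequenced on a BGISEQ-500, per the labels. The submitters' processing notes name Trimmomatic 0.39, featureCounts and mm10. The aligner, the annotation and the use of strand were not given in the sources used here. What the authors deposited is a table that holds CPM for 32108 genes, although its name speaks of TPM. Each library's values sum to 1000000 and step in hundredths of 1 read, so the authors did not divide by length. Only 52.8% to 54.3% of the values above 0 are whole reads (tolerance 0.0002 read), so no count model was used. The design was written for TPM and applied to CPM unchanged. GENCODE M21 gave symbols for 32063 identifiers and none for 45, and 0 columns belonged to no sample.

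Genes with at least 1 CPM in 2 libraries entered a linear model of log2(CPM + 1) in limma 3.58.1 (R 4.3.3; lmFit, eBayes with an intensity trend, a coefficient per day, 4 residual degrees of freedom), two-sided, with Benjamini-Hochberg adjustment over all 15358 tested genes. Changes are differences of mean log2(CPM + 1), which understate the fold of low genes. Folds are ratios of mean CPM. Errors marked ± are SD over 2 libraries unless named SE. The model pools the spread over days, yet the spread differed between them. The mean chi-square per gene between replicates, near 1 for counting error alone, was 1.40 on D2, 5.78 on D4, 3.89 on D6 and 4.40 on D8. The effect of this difference on the calls was not tested. Simulations were run over 15358 genes, with changes of each size set in 100 genes of mean log2(CPM + 1) above 2. Their noise was normal, with 1 spread per gene for all days. The 4 recovery rates are for the steps D2 to D4, D4 to D6 and D6 to D8, then the whole span. For log2 changes of 1 they were 98%, 96%, 99% and 95%, and for log2 changes of 0.5 they were 70%, 63%, 73% and 70%. Recovery in lower genes was not tested.

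The 8 subunits and the other 11 lists were chosen with earlier results of these data known. Named from each list were up to 4 called genes of largest change per comparison, the leading marker genes, and the 3 genes of nearest course per subunit with at least 5 CPM in the highest day. Ier2, Mmp13, Ccl2, Mapk12, Elk3, Crtc3 and the fibroblast markers with their calls were named, as members of small counts, after their values were seen. Some genes that this rule or a count takes in are not reported here. Python 3.11.15 with pandas 2.3.3 and matplotlib 3.10.9 made the summaries and figures. Alternatives were a pseudocount of 0.1, no filter, median-of-ratios scaling, quantile normalization, no intensity trend, a replicate block and leaving out each library.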

Additional observations from a re-analysis of the deposited data

How the results depend on the processing

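Under the 14 alternatives, 425 of 448 changes of a subunit kept their direction and call, 22 lost the call and 1 reversed, Fos from D2 to D8 under quantile normalization (-0.049, adjusted p = 0.72). Of 32 changes of a subunit, 27 had the same call throughout, and Fos, Fosb and Junb were the pulse members under all 14 settings. Subunits called from D6 to D8 numbered 2, against 0 without the filter on low values, 1 without the intensity trend and 0 to 2 on leaving out 1 library. The fall at each step was called for 1 subunit, against 0 without the filter and 0 to 1 on leaving out 1 library. Genes called from D6 to D8 numbered 1399, against 344 without the filter, 533 without the trend and 398 to 1743 on leaving out 1 library. The cause was not tested, except that a day left with 1 library is assumed to vary like the others. Rises made up 65.3% of calls from D2 to D4 and 66.7% from D4 to D6, against 52.5% and 46.8% after median-of-ratios scaling and 47.1% and 47.7% after quantile normalization. Correlations of replicate differences between days lay between -0.10 and 0.21, the highest for D4 with D8, so little pairing by replicate number showed. A replicate block called 9753, 6046 and 1593 genes at the first, second and last step and 10929 over the whole span. Without the block these counts were 9606, 5792, 1399 and 10807. The block left the same pulse members, with Fosl1 again falling at each step. Depth limits Atf3 and Fosb most, whose lowest libraries held 15 and 29 reads.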
